A study of Mus musculus with 6 samples.

Results

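The genes described here are 31 genes of cholesterol and fatty acid synthesis, read in sorted lung cells of mice with 2 Bmi1 genotypes. They were chosen by name as enzymes and regulators of the 2 routes, and all 31 were found by gene symbol among the 18193 genes of the array. They fall into a sterol arm of 18 genes and a fatty acid arm of 13. A gene with several probe sets is represented by the one brightest on average on the log2 scale, and 31 of 31 had a mean signal of at least 100.

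The series holds 3 arrays of Bmi1 wild-type mice and 3 of mice whose genotype is given as Bmi1 null in one label and as mutant in others. All mice were 4-month-old females on a mixed Bl6/129 background, and no agent was given. Lung cells were freed with dispase and collagenase, and live cells lacking the endothelial protein CD31 and the blood cell protein CD45 were sorted without culture. Amplified RNA was hybridised to Affymetrix Mouse Genome 430 2.0 arrays. The labels do not say whether an array holds 1 mouse or a pool, which part of Bmi1 is missing, or in which cells it is missing. The p-values therefore measure the spread between these samples.

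Bmi1, a Polycomb repressive complex 1 subunit, read 996, 979.8 and 1164 in the wild-type arrays and 1276, 1498 and 1565 in the mutant arrays (log2 difference 0.46, limma adjusted p = 0.282). The signal of the targeted gene was thus not lower in the mutant arrays, and every direction below rests on the labels. The sort was meant to leave out blood cells, yet the gene of CD45, Ptprc, read from 6639 to 8507 in wild type and from 5048 to 6708 in mutant arrays, and Pecam1, the gene of CD31, read from 1907 to 2829 and from 2691 to 3185. Log2 signals of the genes correlated at 0.970 to 0.979 within a genotype and at 0.957 to 0.973 between genotypes. Over the arrays the 3′ to 5′ signal ratio of Gapdh, a sign of RNA quality, ran from 4.85 to 5.94 and overlapped between the genotypes. The same ratio of Actb ran from 0.949 to 1.002 and overlapped too, so the 2 control genes gave unlike ratios. The arrays were scaled to a common trimmed mean before deposit, so a shift of all genes together cannot be seen.

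Cholesterol is built from acetyl-CoA through mevalonate, isoprenoid units, squalene and lanosterol, and fatty acids are built from acetyl-CoA through malonyl-CoA to palmitate, which is then elongated and desaturated. The transcription factor SREBP-2, encoded by Srebf2, acts mainly on the sterol enzymes, and SREBP-1, encoded by Srebf1, mainly on the fatty acid enzymes. INSIG proteins hold both factors in the endoplasmic reticulum when sterols are plentiful. In the lung, alveolar type 2 cells make much lipid for surfactant, and alveolar macrophages take surfactant up and break it down.

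The sterol synthesis genes had higher signals in the mutant arrays at most steps of the route, and Hsd17b7, which encodes a 3-ketosteroid reductase of the later steps, passed the test. Of the 18 sterol arm genes, 16 had a log2 difference above 0, with a median of 0.39. Of the 13 fatty acid genes, 11 lay above 0, with a median of 0.17, and 0 passed the test (4 had an unadjusted limma p under 0.05). With median centring of the arrays these counts were 18 and 12. Over all genes tested, 50.7% lay above 0 and the median was 0.0059. The test was limma with Benjamini-Hochberg adjustment over all 18193 genes, on log2(signal + 16), with a call at an adjusted p under 0.05. By it 1 of the 31 members was called higher and 0 lower, against 0.923% of all genes called in either direction and 0.412% called higher and 0.511% lower.

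Wild-type and mutant arrays showed no overlap for 15 of the 31 members, with the mutant arrays higher in each of the 15, against 20.5% of all genes in either direction and 10.4% of all genes with the mutant higher and 10% with it lower. These were 10 of the sterol genes (Hmgcs1, Pmvk, Idi1, Fdft1, Sqle, Lss, Cyp51, Hsd17b7, Srebf2 and Insig1) and 5 of the fatty acid genes (Fasn, Elovl1, Scd1, Fads1 and Fads2). At an unadjusted limma p under 0.05 stood 10 members, 6 sterol and 4 fatty acid genes, all with the mutant higher, against 7.51% of all genes with the mutant higher and 7.04% with it lower (14.5% in either direction). The shares over all genes include genes dimmer than any member. When only the 11491 genes with a mean signal of at least 100 were tested, 12 members and 2139 genes had an unadjusted limma p under 0.05. In that run 3 members were called, against 2.68% of the genes tested. A count over the members carries no test of its own, since the list was chosen with earlier results of these data known.

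**Figure D1:**
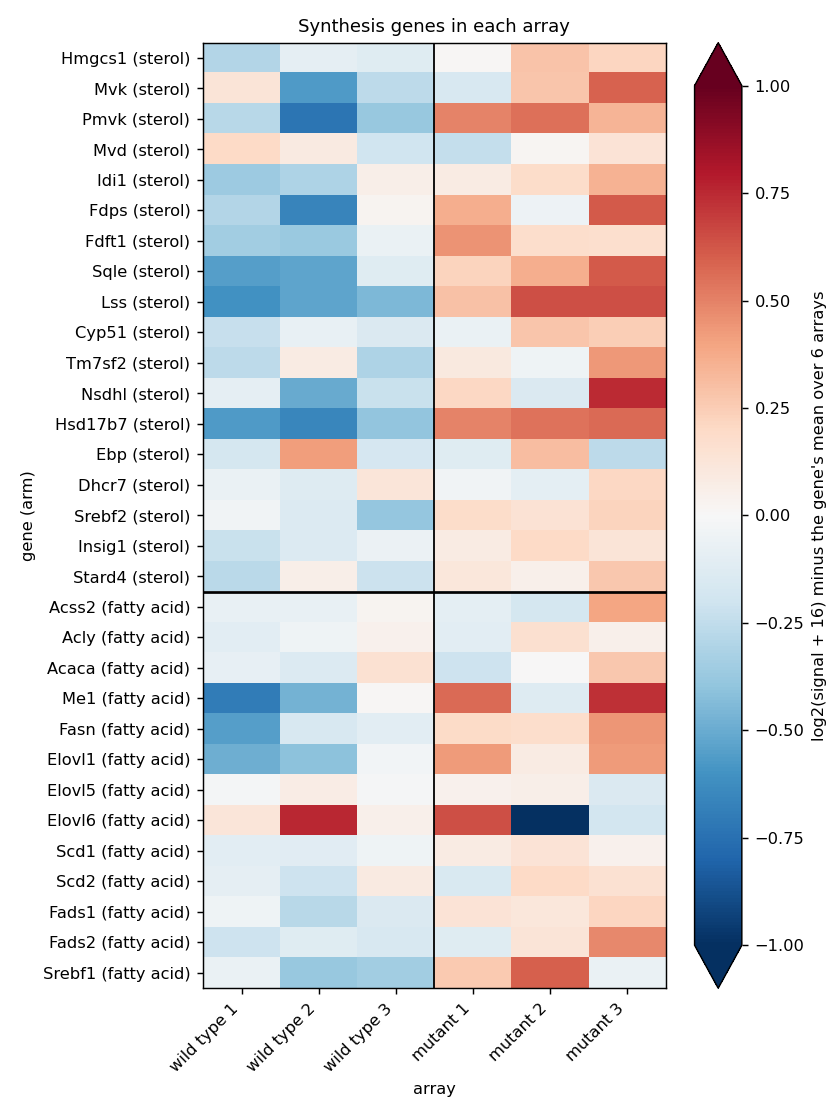
Each row is a gene and each column an array; colour gives log2(signal + 16) minus the gene's mean over the 6 arrays, and values beyond the colour scale are shown at its end. The sterol genes are mostly blue in the 3 wild-type arrays and red in the 3 mutant arrays, most deeply Lss, Hsd17b7 and Pmvk, while the fatty acid genes are paler, with Elovl6 apart.

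Hsd17b7 read 948, 890.2 and 1068 in the wild-type arrays and 2000.1, 2065 and 2097 in the mutant arrays. All 3 mutant values lay far above the wild-type range, and the spread within each group was small. The mean rose from 969 ± 90.5 to 2054 ± 49.6 (SD, n = 3 each), 2.12 times, with a log2 difference of 1.08 ± 0.15 (limma SE, adjusted p = 0.0376). The call was lost without any 1 of the 6 arrays, with adjusted p-values from 0.0873 to 0.153 and log2 differences from 1.02 to 1.15. It was also lost with an offset of 1 (adjusted p = 0.0853) and with the mean of the probe sets (log2 difference 0.76, adjusted p = 0.112). Its other probe sets differed by 1.11, 0.74 and, for a dim set with signals under 29, by 0.12. The probe set that stands for Hsd17b7 is of a type (x_at) that may also bind other transcripts. The same holds for those of Fdft1, Acly, Elovl1, Elovl5 and Fads2 (x_at) and of Lss and Mvd (s_at).

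Lanosterol synthase, Lss, closes the sterol rings and stood just outside the threshold. It read 2463, 2612 and 2757 in wild type and 4620.2, 5892 and 5882 in mutant arrays, again with no overlap. The mean was 2.09 times higher in the mutant arrays, a log2 difference of 1.05 ± 0.17 (limma SE, n = 3 each, adjusted p = 0.0513). Lss passed the test with median centring (adjusted p = 0.0329), an offset of 64 (0.0282), a minimum mean signal of 100 (0.0219), an intensity trend (0.00546), array weights (0.0488) and the mean of its probe sets (0.0257). It did not pass with quantile normalization (adjusted p = 0.0542), an offset of 1 (0.108) or without any 1 array (0.107 to 0.179). Its 3 probe sets differed by 1.05, 0.95 and 1.88. The probe set with 1.88 was the dimmest, at 107, 103 and 177 in wild type against 514, 472 and 526, and was the 1 called among the 73 probe sets of the members when all 34945 single-gene probe sets were tested with limma (adjusted p = 0.031).

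The promoters of the 3 members with the smallest p-values, Hsd17b7, Lss and Pmvk, are shown. That of Hmgcs1 was added because it held a match to the sterol regulatory element, not for its signals. SREBP factors act through short promoter elements together with the factors NF-Y and Sp1. The sequences are from RefSeq, build GRCm38.p6, written 5′ to 3′ in the direction of the gene, from 250 bases before an annotated start up to that start or to the outermost annotated end of the gene. Capitals mark matches on either strand to the sterol regulatory element TCACNCCAC, the CCAAT box CCAAT, the GC box GGGCGG and the E-box CACGTG.
Hsd17b7, chr1:169969243-169969455, minus strand: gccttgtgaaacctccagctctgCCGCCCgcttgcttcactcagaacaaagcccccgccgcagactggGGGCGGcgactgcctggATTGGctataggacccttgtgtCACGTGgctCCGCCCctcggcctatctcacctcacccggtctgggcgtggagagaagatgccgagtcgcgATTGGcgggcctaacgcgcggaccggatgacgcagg
Lss, chr10:76531355-76531564, plus strand: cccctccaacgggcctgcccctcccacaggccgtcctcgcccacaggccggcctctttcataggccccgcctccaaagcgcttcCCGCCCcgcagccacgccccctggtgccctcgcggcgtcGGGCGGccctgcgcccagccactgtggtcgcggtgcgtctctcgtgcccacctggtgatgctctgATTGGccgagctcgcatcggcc
Pmvk, chr3:89454291-89454540, plus strand: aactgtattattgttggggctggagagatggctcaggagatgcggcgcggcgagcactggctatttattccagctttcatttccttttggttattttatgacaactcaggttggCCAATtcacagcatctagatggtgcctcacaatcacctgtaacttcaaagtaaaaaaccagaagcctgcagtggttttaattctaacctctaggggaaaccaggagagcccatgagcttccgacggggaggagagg
Hmgcs1, chr13:119690101-119690350, plus strand: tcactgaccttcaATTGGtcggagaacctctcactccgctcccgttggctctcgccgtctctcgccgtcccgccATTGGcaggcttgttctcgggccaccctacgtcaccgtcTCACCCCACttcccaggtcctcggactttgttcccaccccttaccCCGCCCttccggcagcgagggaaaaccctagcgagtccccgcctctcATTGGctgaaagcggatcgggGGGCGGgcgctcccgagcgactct

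The Hsd17b7 stretch held 2 CCAAT boxes, 165 and 73 bases before the start, with 3 GC boxes and 1 E-box. The Lss stretch held 1 CCAAT box, 62 bases before the start, and 2 GC boxes. In Pmvk, 1 CCAAT box lay 136 bases before the first of its 2 annotated starts. Hmgcs1 held a match to the sterol regulatory element TCACNCCAC 137 bases before its start, with 3 CCAAT boxes and 2 GC boxes. It was the 1 member with such a match among the 24 members that had a promoter window from 250 bases before to 50 after the start. Forms of the element that depart from these letters were not searched. A match to TCACNCCAC occurred in 1.44% of the 27025 genes with a window. All 14 sterol genes with a window held a CCAAT box, against 7 of 10 fatty acid genes and 41.1% of all genes. The GC box stood in 13 of the 14 and 6 of the 10, against 38.2% of all genes, and the E-box in 3 and 1, against 8.09%. A gene was counted if the window of any of its annotated starts held a match. Of the 31 windows of the 24 members, 22 held a CCAAT box, against 37.4% of all windows, and 22 a GC box, against 35.7%. These matches describe letters in a window and show no binding.

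The mevalonate enzymes had 5 of 6 genes above 0 and 0 called (2 at an unadjusted limma p under 0.05), with a median of 0.44. Pmvk, phosphomevalonate kinase, read 4862, 3541 and 4526 in wild type and 8326, 8655 and 7445 in mutant arrays, with a gap between the groups. Its mean was 1.89 times higher, a log2 difference of 0.93 ± 0.18 (limma SE, n = 3 each, adjusted p = 0.0825). It passed the test with an offset of 64 (adjusted p = 0.0444), a minimum mean signal of 100 (0.0398) and an intensity trend (0.011), and did not with an offset of 1 (0.145) or without any 1 array (0.117 to 0.227).

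Hmgcs1, the synthase that makes HMG-CoA, read 7611, 8755 and 8601 against 9412, 11382 and 10825, a log2 difference of 0.34 (adjusted p = 0.404). Its 4 other probe sets differed by 0.66, 0.63, 0.61 and 0.14, so the brightest set was not the one with the widest difference. Idi1, which interconverts the isoprenoid units, read 3988, 4124 and 5348 against 5437, 5809 and 6507 (log2 difference 0.41, adjusted p = 0.374). The groups did not overlap in either gene.

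Fdps, farnesyl diphosphate synthase, read 688, 530.2 and 864 in wild type and 1096, 819.8 and 1309 in mutant arrays (log2 difference 0.62, adjusted p = 0.334). The dimmer gene Mvk, mevalonate kinase, read 244, 145 and 183 against 197, 273 and 342 (0.47, adjusted p = 0.487). Mvd, the decarboxylase of the same chain, read 634, 587 and 479 against 463, 557 and 606 (-0.06, 95% interval -0.51 to 0.39). All 3 genes overlapped between the genotypes.

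Among the 9 squalene and post-squalene enzymes, 8 lay above 0, with a median of 0.53 and Hsd17b7 as the called gene. Fdft1, squalene synthase, read 2558, 2509 and 3109 in wild type and 4457, 3676 and 3655 in mutant arrays (log2 difference 0.53 ± 0.18, limma SE, adjusted p = 0.246). Sqle, the epoxidase that follows it, read 1046, 1064 and 1411 against 1795, 1984 and 2357 (0.80 ± 0.20, adjusted p = 0.136). Neither gene overlapped between the groups, and Sqle passed with an intensity trend in the variance prior (adjusted p = 0.0491).

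Cyp51, the lanosterol demethylase, read 2834, 3169 and 3009.7 against 3188, 4037 and 3965 (log2 difference 0.30, adjusted p = 0.474). Nsdhl, a sterol dehydrogenase, read 504, 375 and 458 against 624, 486 and 914 (0.54, adjusted p = 0.402). The sterol reductase gene Tm7sf2 read 115, 150.3 and 111 against 152, 137 and 197 (0.33, adjusted p = 0.525). Mutant replicate 3 was the highest of the 6 arrays for Nsdhl and Tm7sf2, and the groups overlapped in both.

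Like Mvd, the later enzymes Ebp and Dhcr7 had differences close to 0. Ebp, a sterol isomerase, read 924, 1400.3 and 927 in wild type and 961, 1298 and 866 in mutant arrays (log2 difference -0.05, 95% interval -0.63 to 0.53). Dhcr7, which reduces 7-dehydrocholesterol to cholesterol, read 1563, 1494 and 1782 against 1592, 1528 and 1890.3 (0.05, 95% interval -0.35 to 0.45). The upper bound for Dhcr7 lies below the values of Lss, Hsd17b7, Pmvk and Sqle, though no difference between genes was tested.

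The sterol regulators and the carrier lay above 0 in 3 of 3, with 0 called (0 at an unadjusted limma p under 0.05). Srebf2 read 1119.7, 1040.2 and 870.1 in wild type and 1305, 1269 and 1342 in mutant arrays (log2 difference 0.37 ± 0.17, limma SE, adjusted p = 0.366). Insig1, itself a target of SREBP, read 6219, 6615 and 6974 against 7700.2, 8339 and 7953 (0.28 ± 0.15, adjusted p = 0.462). Both genes had every mutant array above every wild-type array without passing the test. Stard4, a carrier of cholesterol between membranes, read 1050.0, 1321 and 1094 against 1372, 1318 and 1533 (0.29, adjusted p = 0.505), and its 2 other probe sets differed by -0.02 and -0.37, against the direction of the brightest.

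**Figure D2:**
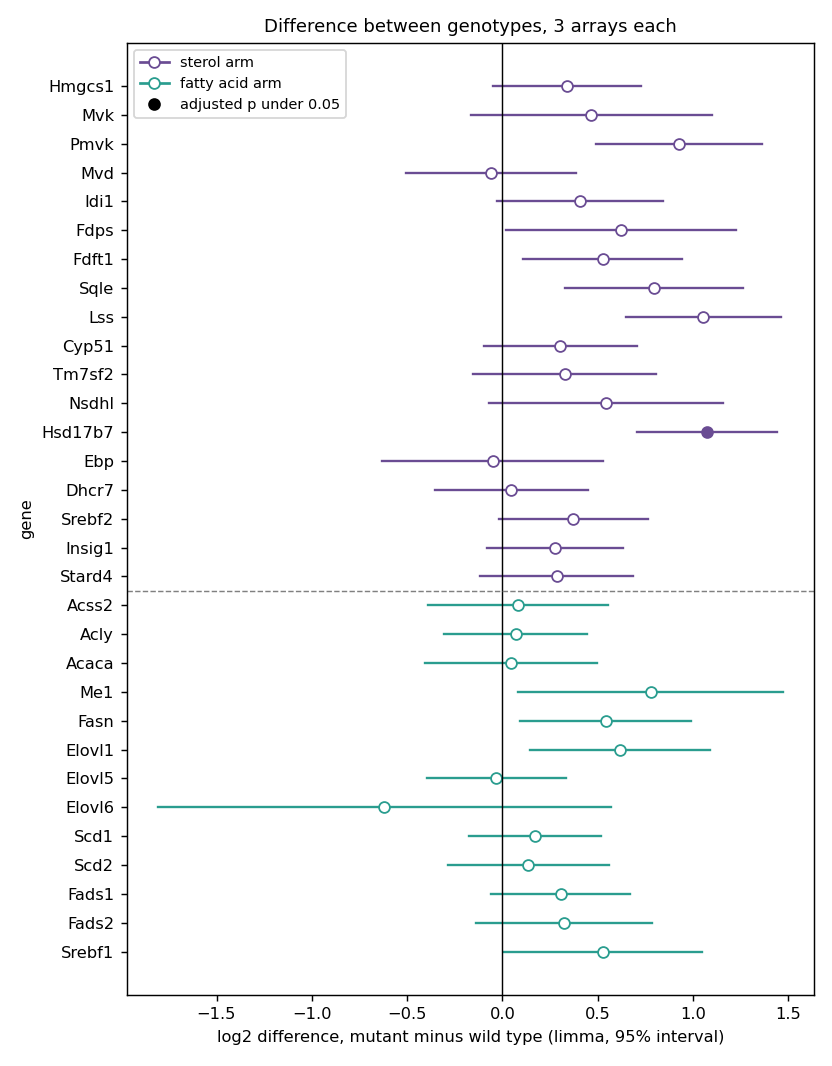
Points give each gene's log2 difference, mutant minus wild type, and lines limma's 95% interval, with n = 3 arrays per genotype; the filled point passed an adjusted p under 0.05. Hsd17b7 at 1.08 is the filled point, Lss at 1.05 and Pmvk at 0.93 lie beside it, and Elovl6 has the widest interval, -1.81 to 0.57.

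In the fatty acid arm, the enzymes that supply carbon had nearly equal means in the genotypes. Acly, which splits citrate to acetyl-CoA, read 8471, 8835 and 9380.1 in wild type and 8449.6, 10172 and 9451 in mutant arrays (log2 difference 0.07, 95% interval -0.30 to 0.44). Acaca, the carboxylase that makes malonyl-CoA, read 909.9, 877 and 1076 against 834, 971 and 1171 (0.05, interval -0.40 to 0.50). Acss2, which activates acetate, read 1318, 1317 and 1416 against 1296, 1227 and 1834 (0.08, interval -0.39 to 0.55). All 3 overlapped between the genotypes.

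Fasn, the synthase that makes palmitate, had higher signals in each mutant array. It read 1677, 2205 and 2283 in wild type and 2815, 2789 and 3347 in mutant arrays, a log2 difference of 0.54 ± 0.19 (limma SE, adjusted p = 0.262). Me1, malic enzyme, which supplies NADPH, read 843, 989.5 and 1391 against 2053, 1261 and 2303 (0.78 ± 0.29, adjusted p = 0.295). Mutant replicate 2 lay inside the wild-type range for Me1, and its second probe set differed by 0.30.

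Of the elongases, 1 of 3 lay above 0, and 0 were called (1 at an unadjusted limma p under 0.05). Elovl1, which extends very long saturated chains, read 5511, 5806 and 7600.4 in wild type and 10381, 8169.7 and 10371 in mutant arrays (log2 difference 0.62 ± 0.20, limma SE, adjusted p = 0.230), and its 3 other probe sets differed by 0.34 to 0.65. Elovl5, which extends polyunsaturated chains, read 10598, 11319 and 10641 against 11043, 11168 and 9697 (-0.03, 95% interval -0.39 to 0.33). Elovl6, which extends palmitate to stearate, read 277, 439 and 264 against 407, 87.0 and 221 (-0.62 ± 0.50, adjusted p = 0.641), with mutant replicate 2 far below the other arrays.

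Desaturases lay slightly above 0 in 4 of 4 genes, with 0 called (0 at an unadjusted limma p under 0.05). Scd1, which makes oleate and palmitoleate, was among the brightest members at 14869.6, 14809.8 and 15556 in wild type and 16936, 17584 and 16460.3 in mutant arrays (log2 difference 0.17, 95% interval -0.17 to 0.52). Scd2, its paralog, read 5430.0, 5020.4 and 6165 against 5203, 6658 and 6443 (0.14, interval -0.29 to 0.56). The groups overlapped in Scd2 and not in Scd1.

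Fads1 and Fads2 encode the desaturases of polyunsaturated fatty acids. Fads1 read 4873, 4143 and 4535 against 5509, 5417 and 5822 (log2 difference 0.31, adjusted p = 0.424). Fads2 read 991, 1049 and 1024 against 1050.0, 1252 and 1600.1 (0.32, adjusted p = 0.515), and its lowest mutant array lay barely above its highest wild-type array. Srebf1 read 764, 611 and 624 against 959.8, 1220.0 and 762 (0.53 ± 0.22, adjusted p = 0.336), with mutant replicate 3 inside the wild-type range.

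Set arm against arm, the mean of the sterol genes had the larger difference between the genotypes. With each gene centred on its mean over the 6 arrays, the sterol arm stood at -0.24, -0.27 and -0.18 in wild type and 0.14, 0.21 and 0.35 in mutant arrays, a difference of 0.46 on the log2 scale. The fatty acid arm stood at -0.19, -0.12 and -0.04 against 0.13, -0.0028 and 0.22, a difference of 0.23. Neither arm overlapped between the groups.

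Sterol minus fatty acid arm gave -0.05, -0.15 and -0.15 in the wild-type arrays and 0.01, 0.21 and 0.13 in the mutant arrays, a difference of 0.23 (SD 0.05 and 0.10, n = 3 each). It kept its sign in every alternative run, from 0.19 to 0.28 when 1 array was left out. No run left out a member gene. The fatty acid mean includes Elovl6 at -0.62 ± 0.50 (limma SE), the lowest of that arm, and its part in the arm difference was not tested. By the median over genes the sterol arm differed by 0.39 and the fatty acid arm by 0.17. A mean over chosen genes carries no p-value here. Within the sterol arm, the squalene and later enzymes had the widest separation, 0.51, and within the fatty acid arm the desaturases did not overlap, while the palmitate synthesis group, the elongases and Srebf1 did. The elongases ranged most, with mutant replicate 1 at 0.37 and mutant replicate 2 at -0.42.

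**Figure D3:**
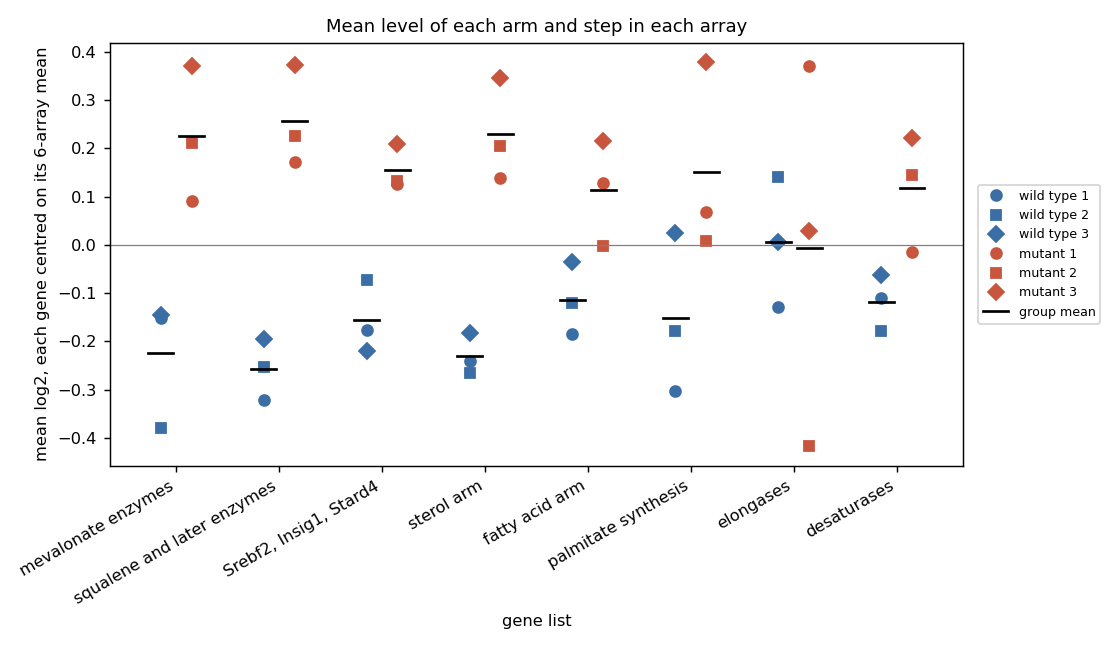
Each symbol is 1 array: the mean log2 value of a gene list with each gene centred on its 6-array mean; bars are group means of 3 arrays. The sterol arm separates at -0.27 to -0.18 against 0.14 to 0.35, the fatty acid arm by less, and the palmitate synthesis group and the elongases overlap.

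Probe sets of the same gene mostly pointed one way. The 22 members with more than 1 probe set had 42 further probe sets, of which 34 had the sign of the gene, and so did 29 of the 33 with a mean signal of at least 100. The 4 bright exceptions were 1 set each of Mvd and Acly and both further sets of Stard4. Probe sets of Hsd17b7, Lss, Srebf2, Idi1, Cyp51, Elovl1 and Scd1 with a mean signal of at least 100 all lay above 0.

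**Figure D4:**
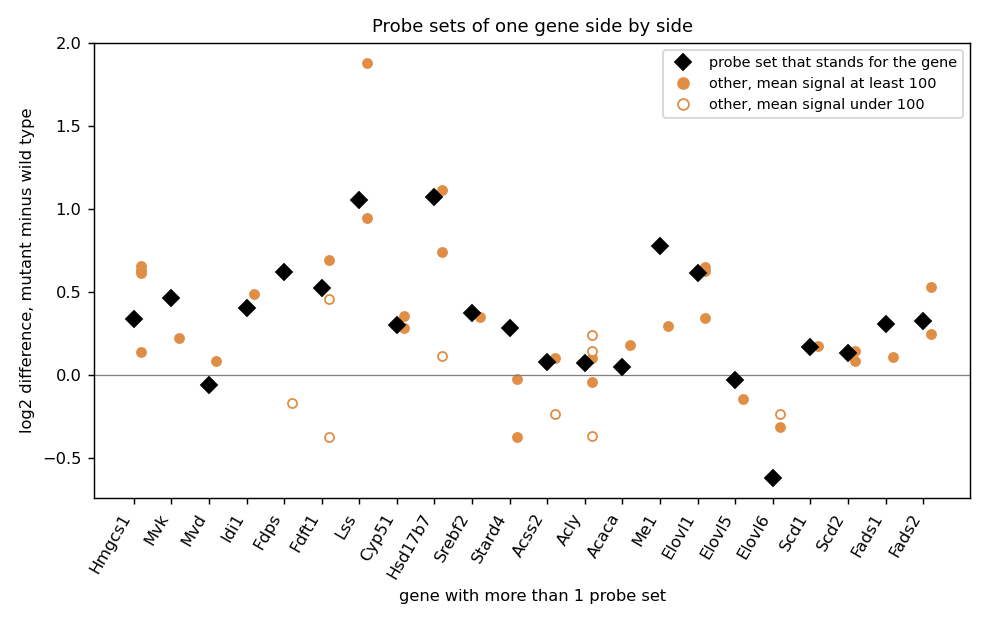
For each gene with more than 1 probe set, the diamond is the probe set that stands for it and circles are the others, filled where the mean signal is at least 100; the axis is the log2 difference, mutant minus wild type. Lss and Hsd17b7 reach 0.74 or more in each filled circle, while Stard4 has filled circles at -0.02 and -0.37.

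Other genes of sterol synthesis, sensing and uptake were counted from a list drawn up by function. Of 9 read here, 7 lay above 0, with a median of 0.14 and 0 called (1 at an unadjusted limma p under 0.05). That 1 was Sc5d, a desaturase late in the route, at 744, 612 and 698 in wild type and 1089, 1153 and 1029 in mutant arrays (log2 difference 0.66, adjusted p = 0.129). Msmo1, the methyl sterol oxidase, differed by 0.41 (adjusted p = 0.476), Insig2 by 0.29 and the protease gene Mbtps2, whose product frees SREBP, by 0.21.

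Cholesterol efflux and storage genes had no common direction, with 4 of 9 above 0, a median of -0.13 and 0 called (2 at an unadjusted limma p under 0.05). The exporter gene Abcg1 read 6214, 7177 and 8434 in wild type and 3698, 4723 and 4875 in mutant arrays (log2 difference -0.71, adjusted p = 0.172). Abca1 differed by -0.46 (adjusted p = 0.368) and Nr1h3, which encodes the sterol-sensing receptor LXR alpha, by -0.65 (adjusted p = 0.374). Apoe, which carries cholesterol in particles, read 514, 472 and 419 against 709, 2389 and 1223 (1.42, adjusted p = 0.185). These 4 genes were named for the smallest p-values of the list, and in none of them did the groups overlap. Over the list 5 of 9 genes showed no overlap, 3 with lower and 2 with higher mutant signals, against 20.5% of all genes.

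Further fatty acid synthesis genes lay above 0 in 16 of 20, with a median of 0.12 and 0 called (3 at an unadjusted limma p under 0.05). The 3 were Thrsp, a lipogenic regulator, at 1.03 (adjusted p = 0.178), Acacb, the mitochondrial acetyl-CoA carboxylase, at 0.56 (0.256) and Mlx, partner of the carbohydrate response factors, at 0.44 (0.282). Pgd, an NADPH source, differed by 0.23.

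Genes of fatty acid activation and of phospholipid and triglyceride assembly had 9 of 13 above 0, a median of 0.12 and 0 called (2 at an unadjusted limma p under 0.05), with Lpin1, a phosphatidate phosphatase, at -1.02 (adjusted p = 0.129) and Agpat2, an acyltransferase, at 0.64 (0.153). Dgat2, which makes triglyceride, differed by 0.56 (adjusted p = 0.379) and Lpin2 by 0.33 (0.374). Fatty acid uptake, storage and oxidation genes lay above 0 in 3 of 11, with a median of -0.11 and 0 called (1 at an unadjusted limma p under 0.05). Pparg, a regulator of lipid storage, read 1686, 1535 and 2357 against 788, 776 and 1061 (-1.06, adjusted p = 0.0979), with no overlap. The fatty acid binding protein genes Fabp4 and Fabp5 differed by -0.51 and 0.19, and Ppara, a regulator of fatty acid oxidation, by 0.47.

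Markers of several cell types moved with the genotypes beside the sterol arm. In bulk sorted cells a change in the share of a cell type and a change per cell cannot be told apart. Alveolar type 2 markers lay above 0 in 9 of 9 with 0 called (1 at an unadjusted limma p under 0.05), and their summed signal ranged from 81375 to 92754 in wild type and from 98982 to 103175 in mutant arrays. With each gene centred, that list differed by 0.23, against 0.46 for the sterol arm and 0.23 for the fatty acid arm, and Sftpc, the surfactant protein C gene, by 0.15 (adjusted p = 0.771). On the same scale alveolar type 1 markers differed by 0.54, fibroblast markers by 0.75 and smooth muscle and pericyte markers by 1.47. Each mean was higher in the mutant, by more than that of the sterol arm. By the median over genes, alveolar type 1 markers differed by less than the sterol arm, 0.29 against 0.39. Pdpn, at 1.51, had the largest difference of the alveolar type 1 list.

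Alveolar macrophage markers lay below 0 in 9 of 9 with 3 called lower, Fabp1, Krt79 and Siglecf, and summed to 54204 to 64942 in wild type and 33869 to 46830 in mutant arrays. Chil3 and Marco of the same list differed by -0.01 (adjusted p = 0.979) and -0.38 (0.628). Fibroblast markers, summing to 16958 to 30087 and 37379 to 38615, lay above 0 in 8 of 8 with Col1a1 called higher. Smooth muscle and pericyte markers lay above 0 in 8 of 8 with 0 called (7 at an unadjusted limma p under 0.05), and summed to 2927 to 9507 against 10746 to 13150.

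Neutrophil markers lay above 0 in 5 of 5 with Stfa2l1 called higher, and summed to 10032 to 13941 in wild type and 20512 to 49261 in mutant arrays. B cell and natural killer cell markers were called lower in 4 of 4 each, and proliferation markers lay below 0 in 7 of 7 with 0 called (3 at an unadjusted limma p under 0.05). Alveolar type 1 and ciliated cell markers lay above 0 in 6 of 6 and 5 of 5, club cell markers in 3 of 4 and endothelial markers in 4 of 7, with 0 called in each (2, 2, 2 and 1 at an unadjusted limma p under 0.05). The 2 of the club cell list went opposite ways, Scgb3a1 at 0.97 and Cyp2f2 at -0.62. Pan-hematopoietic markers summed to 43028 to 55174 against 39851 to 49266 and overlapped, with 1 of 5 above 0 and 0 called (0 at an unadjusted limma p under 0.05). Some markers were very dim in some arrays. The B cell marker Pax5 read 28.2, 11.8 and 4.4 in the mutant arrays, and the natural killer cell marker Ncr1 11.2, 30.2 and 20.8. The smooth muscle marker Cnn1 read 8.7 in wild-type replicate 3. No detection call was used, so a signal above 0 does not show that a marker was expressed. The part of these cell types in the values of the synthesis genes was not tested.

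**Figure D5:**
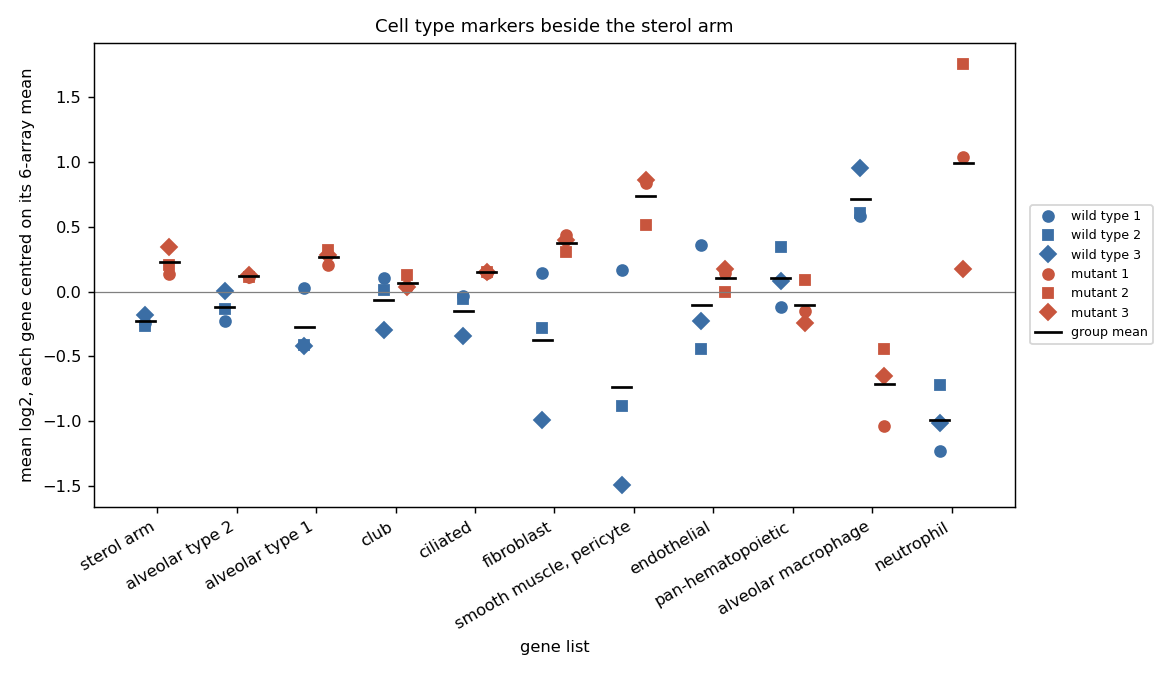
Each symbol is 1 array: the mean log2 value of a marker list with each gene centred on its 6-array mean, beside the sterol arm; bars are group means of 3 arrays. Alveolar macrophage markers are lower, and neutrophil, smooth muscle and pericyte, fibroblast and alveolar type 1 markers higher, in the mutant arrays by more than the 0.46 of the sterol arm, and alveolar type 2 markers are higher by 0.23. The alveolar type 1 mean includes Pdpn at 1.51, and the median difference of that list is 0.29.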

How the data were processed

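RNA of sorted lung cells was read on 6 one-colour arrays, 3 per genotype. The authors deposited linear intensity values per probe set from Affymetrix Expression Console 1.1 (submitters' processing notes); how probes were summarized is not given in the sources used here. Of 45101 probe sets, 64 controls, 932 with several symbols and 9160 without one in the platform annotation were left out. Intensities became log2(signal + 16), which understates folds of dim genes. Genotypes were compared in limma 3.58.1 (lmFit and eBayes in R 4.3.3), with standard errors and 95% intervals from that fit. On simulated data, recovery by the fit was required for the largest planted changes only. The 31 members and all lists were chosen with earlier results of these data known. Named were all members, Bmi1, and the called genes and up to 4 others of smallest p in each pathway list. The leading markers of cell types were named too. Markers with a call, with a very low signal or with opposite directions in their list were added after their values were seen. Alternatives changed scaling, offset, filter, probe-set choice, variance prior, array weights, the replicate block and the arrays included. Promoters came from RefSeq (GRCm38.p6). The number of arrays limits the precision.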

Additional observations from a re-analysis of the deposited data

How the results depend on the processing

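The median of the sterol arm stayed above 0 and above that of the fatty acid arm in each of the 10 processing alternatives. With median centring, which moved the median of all genes from 0.0059 to 0.10, the medians were 0.48 for the sterol and 0.27 for the fatty acid arm. With 1 array left out they ranged from 0.31 to 0.42 and from 0.16 to 0.25, and the arm difference from 0.19 to 0.28. Calls were less stable. Members called higher numbered 2 with median centring and with array weights, 3 with offset 64 or a minimum mean signal of 100, 4 with an intensity trend, 0 with offset 1 (8 at an unadjusted limma p under 0.05), and 0 to 0 without 1 array (5 to 10 unadjusted). The 1 gene was Lss in place of Hsd17b7 with the mean of probe sets. No alternative called a member lower. Over all genes the counts higher and lower were 75 and 93, against 120 and 88 with median centring, 12 and 21 with offset 1, 120 and 145 with offset 64, 145 and 163 with the minimum signal, 188 and 195 with the trend, and 1 to 35 and 1 to 41 without 1 array.

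The replicate numbers occur in both genotypes. Same-numbered arrays correlated in their deviations at 0.0735, 0.0485 and 0.0319, too weakly to pair them, although each array correlated best with its own number. With the replicate number as a block, limma called 0 members and 0 genes higher and 0 lower (9 members and 2611 genes at an unadjusted p under 0.05), and Hsd17b7 had an adjusted p of 0.111.

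Some members changed sign: with median centring Mvd to 0.034, Ebp to 0.045 and Elovl5 to 0.063, and with the mean of probe sets Mvd to 0.013, Acss2 to -0.016 and Stard4, at 0.29 by its brightest probe set, to -0.036, since its other probe sets lie below 0. Without 1 array Mvd ranged from -0.17 to 0.044, Ebp from -0.22 to 0.15, Dhcr7 from -0.044 to 0.12, Acss2 from -0.097 to 0.19, Acaca from -0.078 to 0.16 and Elovl5 from -0.068 to 0.034. The cause of the other changes was not tested.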
